A study of Mus musculus with 8 samples.

Results

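The Mex3 family of the mouse has 4 genes, Mex3a, Mex3b, Mex3c and Mex3d, and their messenger RNA was followed on polysomes of the main olfactory epithelium. All 4 were found by their symbols among the 21765 genes of the deposited table, and all 4 were among the 16097 genes with a mean TPM of at least 1 (TPM is a level of transcripts corrected for gene length and library depth). Polysomes, which are messages loaded with several ribosomes, were separated on sucrose gradients, and lighter (early) and heavier (late) polysome fractions were pooled and sequenced as separate libraries. Wild-type (WT) mice were labelled Mex3a flox/flox or Mex3a flox/+, with no Cre listed, and conditional knockout (cKO) mice were Mex3a flox/flox with a Cre driver. Tissue of both genotypes was bathed in 100 µg/mL cycloheximide at dissection, and no label gives age, sex, strain or the number of mice behind a lysate. Each genotype was represented by 2 lysates, and each lysate gave 1 early and 1 late library, which makes 4 groups of 2 libraries. The general design text of the series speaks of sorted cells carrying HyperTRIBE transgenes, which the labels of these 8 libraries do not mention. The label of WT early library 2 is contradictory, since its title says WT and its genotype tag is that of the cKO mice. It was kept as WT, and the main comparisons that use it are also given without it. Shares of the family sum and the placing by coding length are given with it only. The libraries held 7776792 to 12771079 reads in genes, as inferred from the steps of the TPM values. Nothing says whether the replicates were separate animals, so p-values measure only the spread between these libraries.

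MEX3 proteins bind RNA through a pair of KH domains and carry a RING finger near their carboxyl end, a fold found in ubiquitin ligases. They are descended from a gene first described in the nematode embryo, where MEX-3 keeps maternal messages from being translated in the wrong cells. Mex3a is known for marking slowly dividing intestinal progenitors and is the gene deleted here. MEX3B has been tied to innate immune signalling, MEX3C to the turnover of target messages through the deadenylase subunit CNOT7, and MEX3D to the decay of Bcl2 mRNA. The olfactory epithelium renews its sensory neurons throughout life from basal progenitors, which makes it a tissue in which progenitors and maturing neurons lie side by side.

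The genes lie apart in the genome and have a like structure. On GRCm38 (mm10), Mex3a is on chromosome 3 at 88532395 to 88541396 and Mex3b on chromosome 7 at 82867333 to 82871515, both on the plus strand. Mex3d is on chromosome 10 at 80380355 to 80387659, on the minus strand, and Mex3c is on yet another chromosome, given with its values. In GENCODE M21 the longest coding transcript of each has 2 exons, with coding sequences, stop codon left out, of 1560, 1728, 1956 and 2154 nt in the order a to d. Between pairs of paralogs the aligned coding bases were 59.5% (Mex3a and Mex3c) to 66.1% (Mex3a and Mex3b) identical.

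The coding stretch of 90 bases most alike in Mex3a, Mex3b and Mex3d lies near the end of the reading frame, at coding bases 1435 to 1524, 1603 to 1692 and 2029 to 2118. Mex3c and the untranslated parts were left out of this search. The stretch is shown because reads are harder to assign where genes are more alike. Whether any read was given to the wrong paralog was not tested. It is written 5′ to 3′ from the GENCODE transcripts, with capitals at every position that is not identical in the 3 genes:
Mex3a: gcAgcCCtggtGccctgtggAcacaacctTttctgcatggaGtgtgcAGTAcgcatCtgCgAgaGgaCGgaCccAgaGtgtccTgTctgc
Mex3b: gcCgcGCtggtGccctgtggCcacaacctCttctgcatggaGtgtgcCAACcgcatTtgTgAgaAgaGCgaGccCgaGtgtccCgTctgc
Mex3d: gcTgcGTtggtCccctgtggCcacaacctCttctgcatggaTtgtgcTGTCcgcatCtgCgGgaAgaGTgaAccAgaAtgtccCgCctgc
Of the 90 positions 68 are identical in the 3 genes, and Mex3a shares 74 with Mex3b and 73 with Mex3d. The longest unbroken run shared by any pair of the 4 transcripts was 29 bases, between Mex3b and Mex3d. It lies inside the stretch shown. No pair that includes Mex3a shared more than 21 bases in a row. How the authors treated reads that map to several places is not given in the sources used here.

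The deleted gene was examined first. Levels are TPM, which is per length, so genes can be compared, and are scaled between libraries by median ratios. Mex3a stood at 97.9 and 118 scaled TPM in WT early and 88.1 and 89.2 in WT late libraries. The cKO values were 14.4 and 21.1 (early) and 10.9 and 13.1 (late), so the genotypes did not overlap. WT early library 2, the one with the contradictory tag, had the highest value of all 8. The cKO mean was 16.5% of WT in early and 13.5% in late polysomes, on 215 to 3208 inferred reads per library. Mex3a fell by 2.55 on the log2 scale in early (SE 0.18, adjusted p = 0.00457) and fell by 2.79 in late polysomes (SE 0.18, adjusted p = 0.00282) in limma, with Benjamini-Hochberg adjustment over all genes tested. All fold changes here are of log2(scaled TPM + 1), which understates those of low genes. Mex3a was among 0.0435% of genes called between genotypes in early and 0.0124% in late polysomes. Its adjusted p left the threshold of 0.05 when a WT library of the fraction was left out, in early polysomes without WT library 1 (log2 change -2.69, adjusted p = 0.0804) or 2 (-2.42, 0.0501). In late polysomes this was so without WT library 1 (-2.80, adjusted p = 0.0901) or 2 (-2.79, 0.0945), the remaining library being assumed to vary like the other groups. In bulk tissue, fewer cells of a type and less RNA per cell cannot be told apart, and the labels do not say which part of Mex3a is flanked by loxP sites.

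Mex3b, Mex3c and Mex3d stood higher in cKO than in WT in each fraction, by means of 15.6% to 71.8%. None passed the adjusted threshold in the main test on log2 TPM, which had no block on the replicate number. A run with that block is given in the last section. Mex3b, which had the largest relative difference of the 3 in late polysomes, measured 32.9 and 34.5 scaled TPM in the WT early libraries against 46.4 and 47.4 in their cKO counterparts. In late polysomes the WT libraries had 27.2 and 24.7, and the cKO libraries 42.3 and 46.7. The lowest cKO library was thus 1.34-fold above the highest WT library in early and 1.56-fold above it in late polysomes. The log2 change was 0.47 in early (SE 0.10, adjusted p = 0.461, unadjusted p = 0.00166) and 0.76 in late polysomes (SE 0.10, adjusted p = 0.108, unadjusted p = 6.03e-05) by limma. Only 0.932% of tested genes had a larger log2 change in late polysomes, and 3.07% in early.

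Mex3c spans 73573044 to 73592575 of chromosome 18 (GRCm38, plus strand). The most abundant of the 3 paralogs that were not deleted, it measured 80.1 and 90.7 scaled TPM in the WT early libraries against 121 and 138 in cKO. In late polysomes the WT libraries had 58.5 and 55.6, and the cKO libraries 71.5 and 72.8. Its cKO mean was thus 152% of WT in early and 126% in late polysomes, the reverse of the order seen for Mex3b, where the late difference was the larger. The log2 change was 0.59 in early (SE 0.11, adjusted p = 0.230, unadjusted p = 0.000412) and 0.33 in late polysomes (SE 0.11, adjusted p = 0.417, unadjusted p = 0.0124) by limma.

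Mex3d had the smallest difference of the 3 in early polysomes, while in late polysomes that of Mex3c was smaller. Early polysomes held 38.3 and 42.8 scaled TPM in WT and, in cKO, 44.5 and 49.3, so that the genotypes were separated by a ratio of only 1.04. In late polysomes the WT libraries had 28.4 and 30.1, and the cKO libraries 37.0 and 45.1. The log2 change was 0.20 in early (SE 0.12, adjusted p = 0.829, unadjusted p = 0.139) and 0.47 in late polysomes (SE 0.12, adjusted p = 0.364, unadjusted p = 0.00521) by limma.

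**Figure D1:**
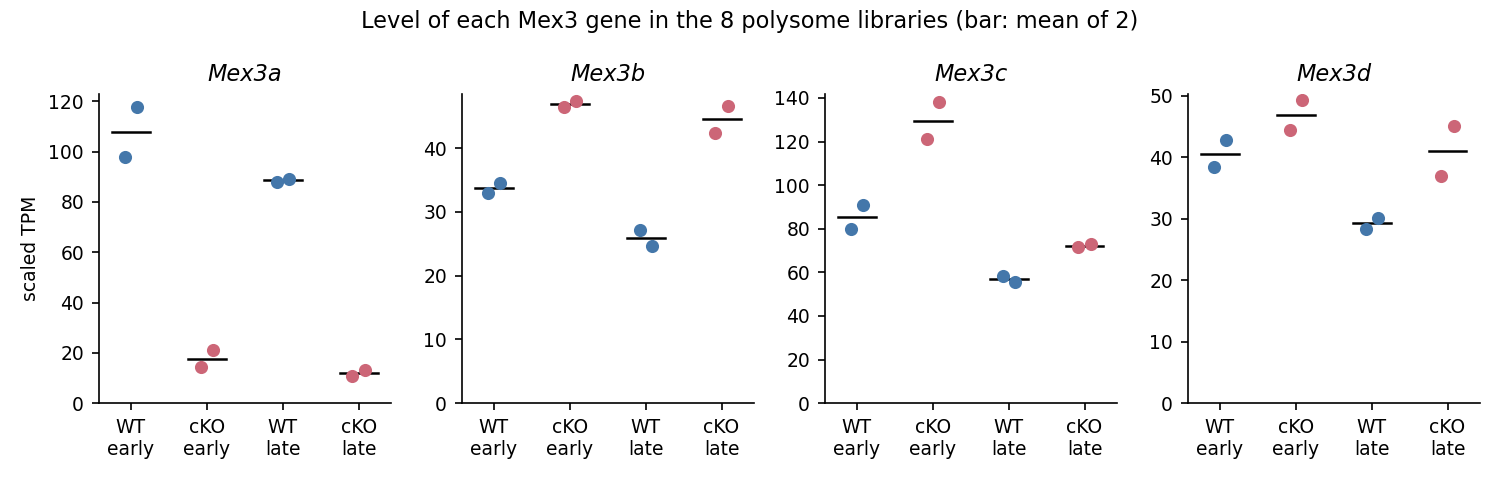
Scaled TPM (vertical axes, starting at 0 with a scale of their own) of each Mex3 gene in the 4 groups, with a point per library and a bar at the mean of the 2 libraries. Mex3a lies between 10.9 and 21.1 in cKO and between 88.1 and 118 in WT libraries, while both cKO points of Mex3b, Mex3c and Mex3d lie above both WT points of the same fraction.

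For all 3 of these paralogs, every cKO library lay above every WT library in early and again in late polysomes. This held with TPM as deposited and with quantile normalization as well, in 6 of 6 pairs of gene and fraction each time. The same pattern was met by 1058 of 16097 genes (6.57%), and its mirror image, with cKO lower in both fractions, by 6.67%. When early and late values were averaged within each lysate, the log2 change was 0.61 for Mex3b (SE 0.074, adjusted p = 0.146), 0.46 for Mex3c (SE 0.071, adjusted p = 0.210) and 0.34 for Mex3d (SE 0.099, adjusted p = 0.374) by limma. Both cKO lysates lay above both WT lysates for each, which follows from the separation within each fraction. The same contrast gave -2.67 for Mex3a (SE 0.14, adjusted p = 0.0227), and 0.00621% of genes were called. At an unadjusted p under 0.05 were all 3 paralogs, against 6.09% of genes in that direction. When whole reads inferred from the TPM steps were tested instead, with voom in limma, Mex3b passed in late polysomes (log2 change 0.77, adjusted p = 0.0229) and on reads summed by lysate (0.60, adjusted p = 0.0309). Mex3c passed on summed reads (0.54, adjusted p = 0.0406) and was just outside in early polysomes (0.60, adjusted p = 0.0516), while Mex3d passed in none of these comparisons (adjusted p = 0.196 on summed reads). In each of these comparisons whole reads called more genes over the whole table than log2 TPM did, as counted in the last section. Without WT early library 2 the log2 changes in early polysomes were 0.50 for Mex3b, 0.68 for Mex3c and 0.28 for Mex3d, each larger than with it (adjusted p = 0.754, 0.557 and 0.766 by limma). Without the lysate of that library, lysate means gave 0.60 for Mex3b (adjusted p = 0.348), 0.49 for Mex3c (0.462), 0.40 for Mex3d (0.630) and -2.60 for Mex3a (0.0402) by limma. With whole reads and without it, Mex3b was at 0.77 in late polysomes (adjusted p = 0.0226) and 0.59 on summed reads (0.0349), and Mex3c at 0.58 on summed reads (0.0372) and 0.69 in early polysomes (0.0934) by voom and limma.

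**Figure D2:**
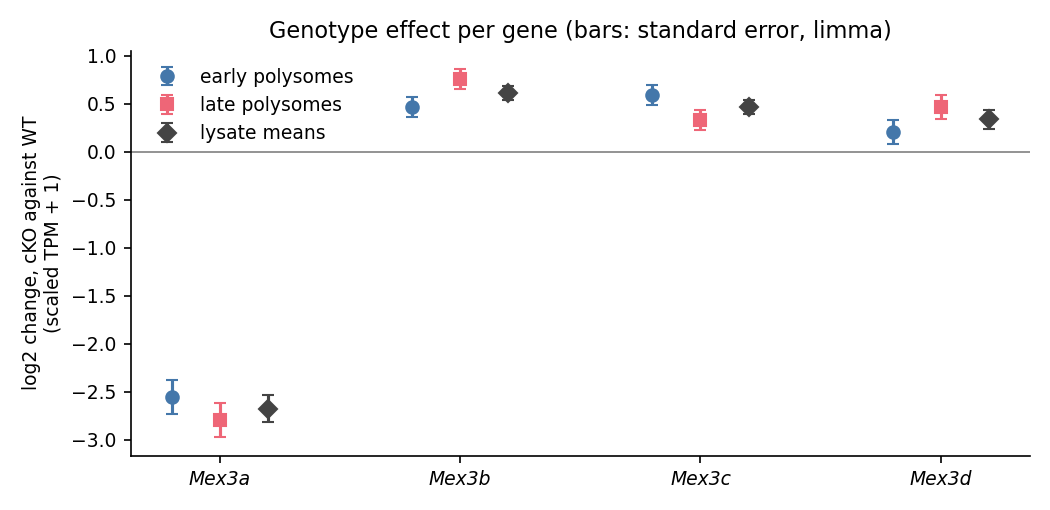
Log2 change of cKO against WT (vertical axis, of scaled TPM + 1) for each Mex3 gene in early polysomes, late polysomes and on lysate means, with limma's standard error as bars. The 3 estimates of Mex3a lie between -2.79 and -2.55, and the 9 estimates of the other genes between 0.20 and 0.76.

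Summed levels of the markers of some cell types did not overlap between genotypes in the same libraries, which is common with 2 libraries a side. An exact permutation test of 2 against 2 libraries cannot give a p below 0.333. The share of single genes not overlapping within 1 fraction is not given here. In both fractions at once, 6.57% of genes were higher and 6.67% lower in cKO. The marker sums were not tested, and their part in the differences of Mex3b, Mex3c and Mex3d was not tested. Markers of mature neurons summed to between 7897 and 13997 scaled TPM per library and those of sustentacular (supporting) cells to between 7636 and 14718. No other tissue was compared. No marker of any list was at 0 in all libraries, and none of the 69 markers tested passed between genotypes in the main limma test on log2 TPM. With whole reads summed by lysate 2 passed, Bpifb5 (log2 change 0.81, adjusted p = 0.0421) and Lyz2 (0.65, adjusted p = 0.0266), both higher in cKO and both from the list of Bowman's glands. Summed reads called many more genes over the whole table than lysate means of log2 TPM did. Lyz2 is also known as a gene of myeloid cells. The 10 markers of immature neurons summed to between 3096 and 3189 scaled TPM in the WT early libraries against 2965 to 3016 in cKO, and to between 3676 and 3849 in WT late and between 3396 and 3482 in cKO late. Their sum was thus lower in every cKO library than in the WT libraries of the fraction, with a median log2 change of -0.078 in each fraction, although 2 of 10 were above 0. The 10 markers of basal progenitors and dividing cells summed to between 681 and 698 in WT early and between 731 and 762 in cKO early libraries, and overlapped in late polysomes (672 to 709 in WT, 679 to 758 in cKO). Hes6, the largest part of the progenitor sum, was at 240 and 262 scaled TPM in WT early and 294 and 305 in cKO early libraries. Mki67, Top2a, Kit and Ezh2 in cKO early library 2 lay below both WT early libraries (Mki67 at 52.9 against 64.2 and 58.4). The median log2 change of the 10 progenitor markers was 0.050 in early and 0.019 in late polysomes, with 7 and 5 of 10 above 0. When lysate means were compared, 2 of 10 progenitor markers, Hes6 and Neurog1, were higher at an unadjusted p under 0.05, as were 4 of 7 for Bowman's glands, 2 of 6 for blood and immune cells and 2 of 5 for respiratory epithelium, and 2 of 10 for immature neurons were lower. Over all genes tested, 6.09% were higher and 5.24% lower at that threshold. Ensheathing glia had 1 of 7 higher and 1 lower, and markers of mature neurons, horizontal basal cells and sustentacular cells had 0. Blood and immune markers, of which 6 of 8 are in the table, summed to between 266 and 327 in WT early against 340 to 368 in cKO early, and to between 217 and 257 in WT late against 283 to 285 in cKO late. The log2 change was above 0 for 6 of these 6 in early and for 4 in late polysomes. S100a9 went the other way in late libraries, at 35.0 and 39.6 in WT and 32.3 and 22.1 in cKO. Markers of respiratory epithelium summed to between 1897 and 1929 in WT early against 2031 to 2339 in cKO early, and to between 2119 and 2222 against 2547 to 2711 in late libraries. Sums for Bowman's glands, sustentacular cells, mature neurons, horizontal basal cells and ensheathing glia overlapped between genotypes in early polysomes. In late polysomes the sum of sustentacular cells was higher in both cKO libraries (12837 to 13235 in WT, 14532 to 14718 in cKO). Cyp2a5, its largest part in WT late libraries, overlapped (3996 and 3658 in WT late, 4599 and 3723 in cKO late). Of these markers 7 of 8 had a log2 change above 0 in late polysomes. The late sum of Bowman's glands was barely separated (9260 to 13753 in WT, 13802 to 17085 in cKO). Its largest part, Bpifb9b, overlapped (12307 and 7835 in WT late, 14641 and 11384 in cKO late). Sums of mature neurons (9031 to 9359 in WT, 7897 to 8943 in cKO) and ensheathing glia (680 to 824 in WT, 594 to 601 in cKO) were lower in both cKO late libraries. Omp, the largest part of the mature neuron sum, overlapped (2530 and 2778 in WT late, 2786 and 2309 in cKO late). Most of the glial sum was Fabp7 (642 and 502 in WT late, 437 and 415 in cKO late). Sox10 went the other way (55.9 and 60.8 in WT late, 62.8 and 70.8 in cKO late). In late polysomes 3 of 10 markers of mature neurons and 2 of 7 of glia had a log2 change above 0. Without WT early library 2, the WT early sum was 681 for progenitors, 3096 for immature neurons, 266 for blood and immune cells and 1897 for respiratory epithelium, each outside the range of cKO. So were then those of mature neurons (11643) and ensheathing glia (879). A single library often lies outside the range of 2 others, so this carries little weight.

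The makeup of the family differed between genotypes. In every WT library the order of levels was Mex3a, Mex3c, Mex3d, Mex3b, and Mex3a made up 39.3% to 44.7% of the summed scaled TPM of the 4 genes. In every cKO library Mex3c came first and Mex3a last, at 6.38% to 8.24% of the sum, while Mex3c made up 41.0% to 53.9%. With the other genes at their WT levels, the lower Mex3a alone would give these places and a larger share of Mex3c. Mex3b and Mex3d overlapped in cKO early and in cKO late libraries and could not be ranked there. In WT early libraries the neighbours Mex3c (80.1 and 90.7) and Mex3a (97.9 and 118) were separated by less than the distance between the 2 Mex3a values. The summed level came to 249 and 286 scaled TPM in the WT early libraries and to 226 and 256 in cKO, which overlapped, and 202 and 199.6 in WT late and 162 and 178 in cKO late libraries, which did not. The mean sum in cKO was 90.1% of WT in early and 84.5% in late polysomes. An exact permutation test gave p = 0.667 and 0.333, the latter being the smallest that 2 against 2 libraries can give. The early difference in means was -26.5 scaled TPM, and -8.13 without WT early library 2. In early polysomes the mean of Mex3a differed by -90.1 scaled TPM in cKO, and the summed mean of the other 3 was higher by 63.6, from 160 ± 11.9 to 223 ± 16.1 (SD, n = 2 each). In late polysomes Mex3a differed by -76.7 and the summed mean of the others was higher by 45.5, from 112 ± 2.56 to 158 ± 9.78 (SD, n = 2 each).

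**Figure D3:**
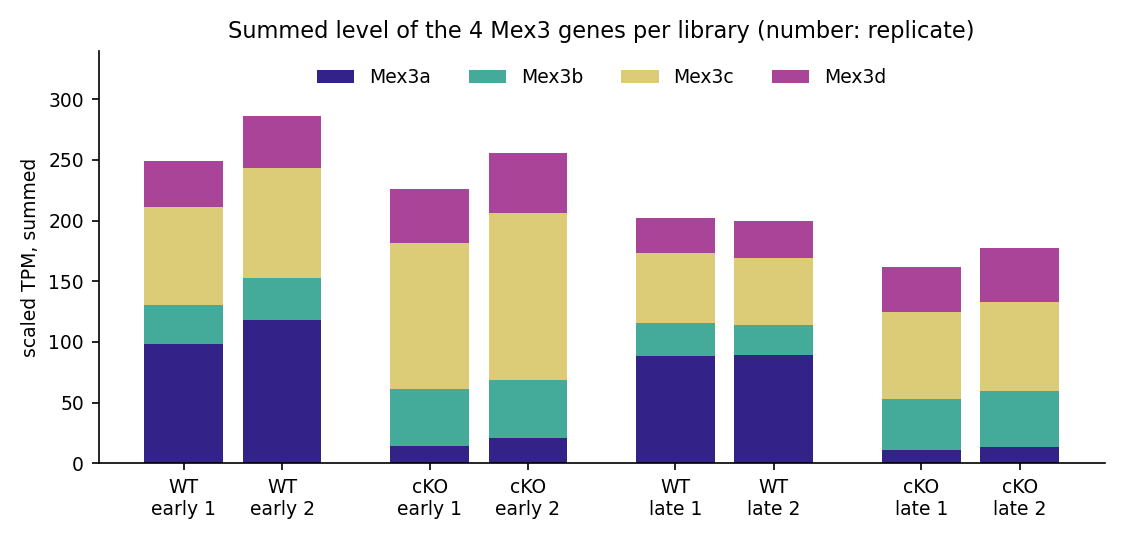
Summed scaled TPM of the 4 Mex3 genes (vertical axis, from 0) in each of the 8 libraries, stacked by gene. Mex3a is the largest block in the 4 WT libraries and the smallest in the 4 cKO libraries, and the height of the bars overlaps between genotypes in early but not in late polysomes.

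Each Mex3 gene had a lower mean scaled TPM in late than in early polysomes. Such a level is relative to the other genes of a library and is not an amount of message. In all 4 lysates the 4 genes were lower in the late library after scaling, as were 37.8% of all genes tested. With TPM as deposited this held in 14 of 16 pairs of gene and lysate, Mex3b and Mex3d being higher in the late library of cKO lysate 2. With quantile normalization it held in 15. Without scaling the median gene lay 0.087 higher in late polysomes on the log2 scale, against -0.011 with it. Mex3c had the steepest drop, with late-to-early ratios of 0.730 and 0.613 (WT) and 0.590 and 0.528 (cKO). For Mex3a the WT ratios were 0.900 and 0.757 and the cKO ratios 0.753 and 0.620. For Mex3d they were 0.741 and 0.703 (WT) and 0.831 and 0.915 (cKO), and for Mex3b 0.826 and 0.714 (WT) and 0.912 and 0.984 (cKO). Averaged over genotypes, the log2 change was -0.70 for Mex3c (SE 0.074, adjusted p = 6.84e-05), -0.39 for Mex3a (SE 0.13, adjusted p = 0.0212), -0.33 for Mex3d (SE 0.088, adjusted p = 0.0103) and -0.22 for Mex3b (SE 0.072, adjusted p = 0.0229) by limma. All 4 passed, in a comparison that called 68.9% of all genes tested (34.6% as lower in late polysomes), so that a call there is common. Mex3c lay lower than 80.9% of genes tested and Mex3b lower than 59.4%. Paired by lysate, all 4 calls held.

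Only the call for Mex3c was firm against both scaling and single libraries. With TPM as deposited the average change was -0.59 for Mex3c (adjusted p = 0.00013 by limma), while Mex3a (-0.28, adjusted p = 0.0704), Mex3d (-0.21, 0.0707) and Mex3b (-0.11, 0.232) no longer passed. The Mex3a call was also lost without WT late library 1 (log2 change -0.39, adjusted p = 0.0569) or 2 (-0.40, 0.0538), WT early library 2 (-0.33, 0.0804), cKO early library 2 (-0.27, 0.0574) and cKO late library 1 (-0.33, 0.0686). The Mex3b call was lost without WT early library 2 (-0.21, 0.0706), WT late library 2 (-0.19, 0.0839), cKO early library 2 (-0.21, 0.0606) and cKO late library 1 (-0.19, 0.0665). The Mex3d call held without any single library, with adjusted p of 0.00524 to 0.0416.

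Heavier polysomes carry longer reading frames as a rule, so each gene was set beside genes of like coding length. Of the 10 equal groups of genes by longest coding sequence, the one that holds Mex3c and Mex3d (1941 to 2442 nt, 1468 genes) had a median late-minus-early change of 0.37. Mex3c at -0.70 was below all but 0.681% of that group, and Mex3d at -0.33 below all but 8.45%. Mex3a lay below the median of its group (0.20) by 0.60, with 16.9% of genes under it, and Mex3b below that of its group (0.28) by 0.50. This placing is a description, since genes are not replicates, and a coding length was at hand for 91.2% of the genes tested.

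**Figure D4:**
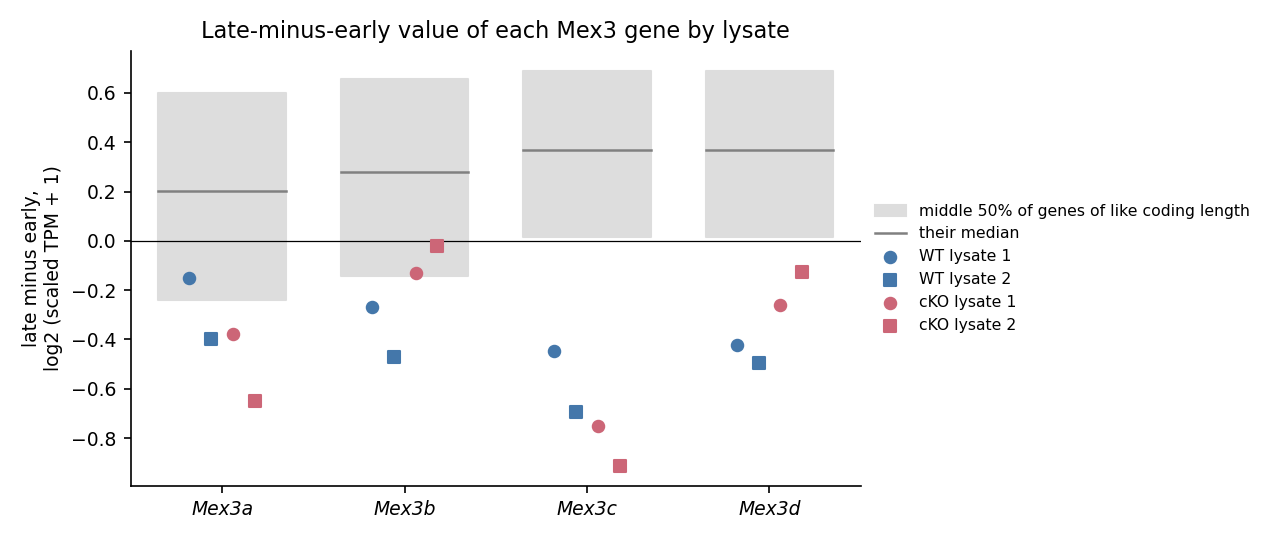
Late-minus-early difference in log2(scaled TPM + 1) (vertical axis) of each Mex3 gene in the 4 lysates, with a grey band for the lower to the upper quartile of genes of like coding length and a line at their median. The 4 points of Mex3c, from -0.91 to -0.45, and those of Mex3d, from -0.49 to -0.13, lie under their bands.

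Whether the paralogs differ from each other in this shift was tested within lysates, over the 6 pairs of genes. Mex3c was lower than Mex3a in 4 of 4 lysates, by 0.31 ± 0.046 on the log2 scale (SD, n = 4), a difference nearly the same in each lysate. It was lower than Mex3b by 0.48 ± 0.34 and than Mex3d by 0.38 ± 0.33, and Mex3d was lower than Mex3b by 0.10 ± 0.056, each in 4 of 4 lysates. An exact sign-flip permutation test gave p = 0.125 for these 4 pairs, the smallest that 4 lysates can give, and 0.188 after Benjamini-Hochberg adjustment over the 6 pairs. Mex3a differed from Mex3b by 0.17 ± 0.34 (exact p = 0.5) and from Mex3d by 0.069 ± 0.34 (exact p = 0.75), each with 2 lysates on either side. Without the lysate of WT early library 2, the mean difference was -0.29 for Mex3c minus Mex3a, -0.43 for Mex3c minus Mex3b, -0.094 for Mex3d minus Mex3b and 0.34 for Mex3d minus Mex3c. It was 0.15 for Mex3b minus Mex3a and 0.052 for Mex3d minus Mex3a.

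The shift was next compared between genotypes. In WT, Mex3c (log2 change -0.57, SE 0.11, adjusted p = 0.0024), Mex3d (-0.46, SE 0.12, adjusted p = 0.0144) and Mex3b (-0.37, SE 0.10, adjusted p = 0.0153) were called lower in late polysomes by limma, where 54.8% of genes were called, and Mex3a was not (-0.27, SE 0.18, adjusted p = 0.222). In cKO, Mex3c (-0.83, SE 0.11, adjusted p = 0.000392) and what remained of Mex3a (-0.51, SE 0.18, adjusted p = 0.0351) were called, where 58.1% of genes were. Mex3d was at -0.19 (SE 0.12, adjusted p = 0.214) and Mex3b at -0.076 (SE 0.10, adjusted p = 0.544), which became 0.047 with TPM as deposited. The difference between genotypes was itself tested as an interaction, which was 0.29 for Mex3b (SE 0.14), 0.26 for Mex3d (SE 0.18), -0.26 for Mex3c (SE 0.15) and -0.24 for Mex3a (SE 0.25), with an adjusted p of 1.00 for each by limma. Unadjusted values were 0.0761, 0.171, 0.116 and 0.364, and 0.00621% of genes passed after adjustment. The late-minus-early values of Mex3b, -0.27 and -0.47 in WT against -0.13 and -0.023 in cKO lysates, did not overlap, nor did those of Mex3c and Mex3d, with cKO below WT for Mex3c and above it for Mex3d. Such values had cKO wholly above WT in 14.9% of genes and wholly below in 14.3%. Those of Mex3a overlapped. Without WT early library 2 the WT calls of Mex3b (-0.33, adjusted p = 0.0856) and Mex3d (-0.38, adjusted p = 0.0970) were lost. So they were, respectively, without WT late library 2 (-0.30, adjusted p = 0.102) and WT late library 1 (-0.42, adjusted p = 0.0766). The Mex3a call in cKO was lost with TPM as deposited (-0.40, adjusted p = 0.0812), without cKO early library 2 (-0.26, 0.234), cKO late library 1 (-0.39, 0.165) or WT late library 1 (-0.51, 0.0555) or 2 (-0.51, 0.0556).

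Genes whose levels followed each paralog were sought by Pearson's r of log2(scaled TPM + 1) over the 8 libraries, among 12138 other named genes with a mean of at least 5 scaled TPM. The 8 libraries share 2 genotypes and 2 fractions, so r mainly describes how those 2 contrasts combine. Closest to Mex3a were the olfactory receptor genes Olfr286 (r = 0.990) and Olfr727 (0.973), Cdh18, a cadherin (0.976), Csnk2a1, a catalytic subunit of casein kinase (0.952), and Scgn, the calcium-binding protein secretagogin (0.934). Olfr286 was 9.59 and 10.6 scaled TPM in WT early and 10.4 and 9.75 in WT late libraries. The cKO libraries had 4.29 and 5.77 (early) and 3.76 and 4.69 (late), on 60 to 107 reads against 205 to 225 in WT. In late polysomes Scgn was at -1.06 (SE 0.13, adjusted p = 0.0957 by limma), and none of the 5 passed between genotypes.

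Closest to Mex3b were Shb (r = 0.958), an adaptor of tyrosine kinase signalling, Hpn (0.955), a membrane serine protease, Ubqln4 (0.953), a ubiquitin shuttle protein, Fastkd3 (0.948), of mitochondrial RNA, and Pink1 (0.946), a mitochondrial kinase. Mex3c was followed by Egln3 (r = 0.988), a prolyl hydroxylase of the oxygen-sensing pathway, Acsl5 (0.987), an acyl-CoA synthetase, Smo (0.984), the Hedgehog signal transducer, Ghr (0.983), the growth hormone receptor, and the receptor gene Olfr1364 (0.983). Early libraries held Egln3 at 8.83 and 9.43 scaled TPM (WT) and 15.7 and 16.9 (cKO), and late libraries at 5.51 and 5.11 (WT) and 8.42 and 8.13 (cKO), which is the early-weighted and cKO-weighted pattern of Mex3c. Mex3d was followed by Mfsd12 (r = 0.990), a transporter of lysosome-related organelles, Nxn (0.987), the redox protein nucleoredoxin, Bcl3 (0.983), a regulator of NF-kappa-B, Tead3 (0.983), a partner of YAP, and Tm4sf1 (0.980). None of these 15 genes passed by limma between genotypes in early polysomes, late polysomes or on lysate means. Among the paralogs themselves, r was 0.880 between Mex3b and Mex3d, 0.852 between Mex3c and Mex3d and 0.736 between Mex3b and Mex3c. The r of Mex3a was negative with each, at -0.843 with Mex3b, -0.524 with Mex3d and -0.388 with Mex3c. Of the genes compared, 0.371%, 4.34% and 9.24% had a lower r with Mex3a than these 3. Seen from Mex3b, Mex3d and Mex3c, 0.741%, 34.8% and 47.6% had a lower r than Mex3a. Seen from Mex3c, 70.9% had a lower r than Mex3b and 86.9% than Mex3d. Over the 7 libraries without WT early library 2 the r values between paralogs were 0.923, 0.851 and 0.758, and -0.897, -0.70 and -0.50, in the same order. The 20 genes named as most alike then had r of 0.940 to 0.992.

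Related genes were examined from 3 lists. Of 31 genes for other proteins with KH domains, 29 were tested and 0 passed between genotypes in either fraction or on lysate means by limma, with 4 (1 higher), 3 (2 higher) and 3 (1 higher) at an unadjusted p under 0.05. Of all genes tested, 6.65%, 9.36% and 11.3% were under it. With whole reads, 0 of them passed as well. Their median log2 change was -0.089 in early and -0.038 in late polysomes, against 0.0055 and -0.00066 over all genes, and 7 and 10 of 29 were above 0. Between late and early polysomes 15 were higher and 10 lower on average, where 34.3% of all genes were called higher and 34.6% lower. The share lower, 10 of 29, was near that of all genes. Their median was 0.29 against -0.011 over all genes. Khdrbs1 (Sam68), a signalling-dependent splicing regulator, rose by 1.18 on the log2 scale (SE 0.082), Khsrp, a decay factor of AU-rich messages, by 0.95 (SE 0.079), and Akap1, which tethers RNA at mitochondria, by 0.90 (SE 0.082). Lower in late polysomes were Khdrbs3 (-0.97, SE 0.10), a neural relative of Khdrbs1, Qk (-0.58, SE 0.073), the glial splicing factor quaking, and Pno1 (-0.51, SE 0.064), of ribosome assembly, with adjusted p for these 6 of 1.89e-05 to 0.000174.

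Of 16 genes for other RNA-binding RING ubiquitin ligases, 14 were tested and 0 passed between genotypes by limma, with 0, 1 and 0 at an unadjusted p under 0.05 in early, late and lysate-mean comparisons, and 0 with whole reads. Their median log2 change was -1.47e-05 in early and 0.018 in late polysomes. Between late and early polysomes 6 were higher and 3 lower, a share called near the 68.9% of all genes. Trim25 (1.09, SE 0.097) and Trim56 (0.96, SE 0.10), of antiviral signalling, and Unk (0.66, SE 0.084), a translational repressor of neurons, were higher in late polysomes. Rc3h2 (-0.51, SE 0.086), Rc3h1 (-0.25, SE 0.077), the roquin pair that decays messages through stem loops, and Mkrn2 (-0.20, SE 0.079) were lower, as the Mex3 genes were. Their adjusted p ranged from 3.44e-05 to 0.0489. Of 8 symbols tied to MEX3 proteins in published work, 6 were tested and 0 passed between genotypes in either fraction or on lysate means, with 0 at an unadjusted p under 0.05 and 0 with whole reads. Bcl2, which blocks cell death and is a reported target of MEX3D, was at -0.10 in early and -0.16 in late polysomes. Cnot7, the deadenylase partner of MEX3C, was the steepest of the list between fractions, lower in late polysomes by 1.03 (SE 0.10, adjusted p = 5.67e-05), and Igf1 was lower by 0.55 (SE 0.098, adjusted p = 0.00115).

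**Figure D5:**
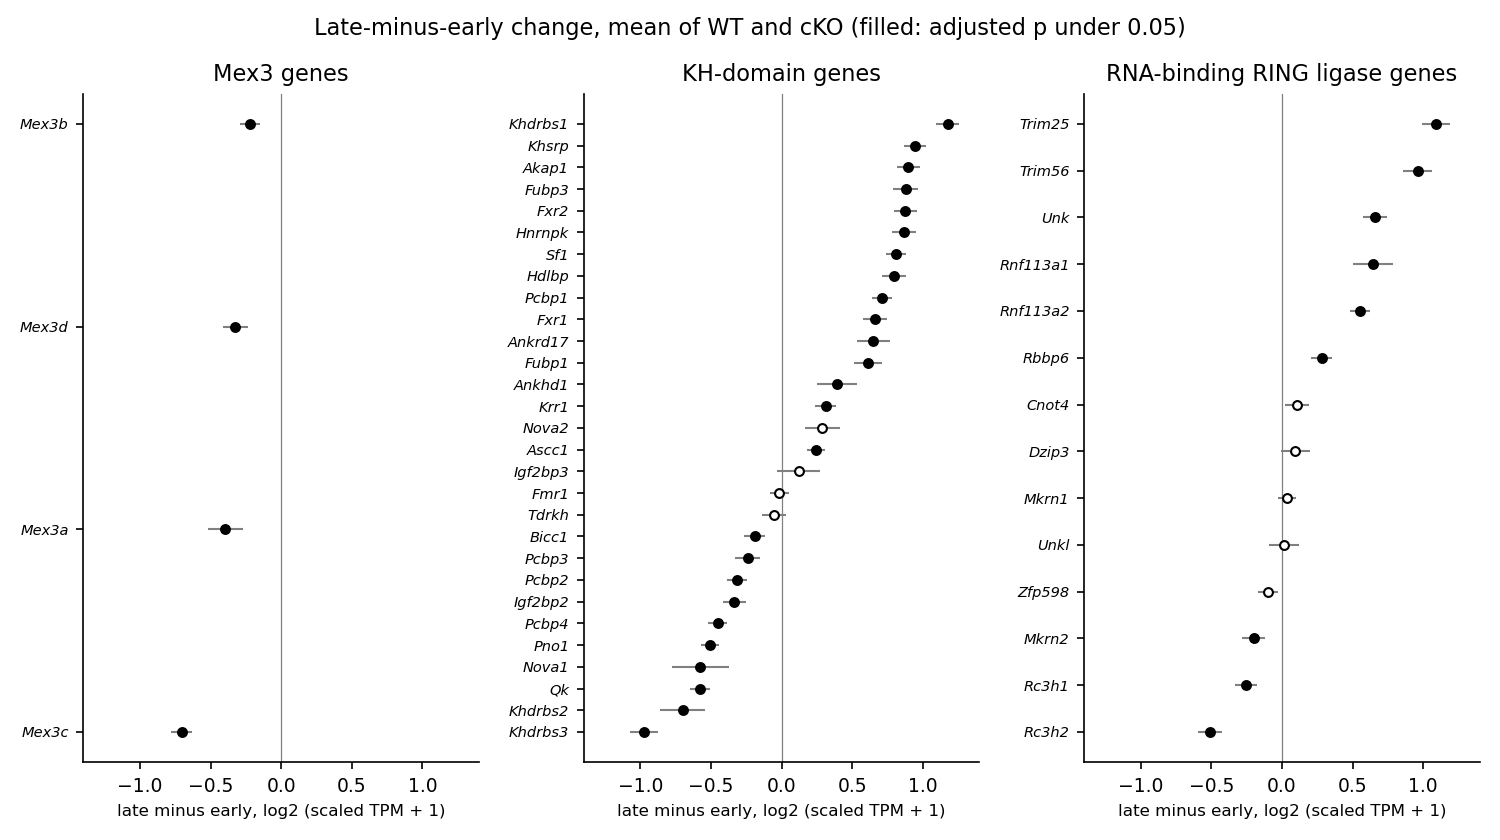
Late-minus-early change in log2(scaled TPM + 1) (horizontal axes), averaged over genotypes, of the Mex3 genes, the 29 KH-domain genes and the 14 RNA-binding RING ligase genes tested, with limma's standard error as bars and filled points where the adjusted p was under 0.05. The 4 Mex3 genes lie left of 0, while the other lists hold genes on either side.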

How the data were processed

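RNA from pooled polysome fractions of mouse main olfactory epithelium was sequenced in 8 libraries, and the authors deposited TPM values per gene in 1 table. Per the submitters' processing notes, FastQC, cutadapt, STAR and DESeq2 and the build mm10 were used. The counter and annotation are not given in the sources used here. Early pools held fractions 27 to 34 and late pools 35 to 42. The Cre line is not reported here. TPM was scaled by median ratios (factors 0.940 to 1.07). Genes with a mean of at least 1 TPM were tested on log2(scaled TPM + 1) in limma 3.58.1 (R 4.3.3), with all 4 groups in 1 fit, a trended prior and Benjamini-Hochberg adjustment at 0.05. Lysate means of early and late values were fitted separately. The steps of the TPM values gave whole reads, within 0.001, for 100% of the 19783 genes above 0 in at least 2 libraries, and voom was run on these as an alternative. For simulated 3-fold changes in 200 of 16045 genes, 191 were recovered in early polysomes with 13 false calls, 190 in late with 24 and 199 on lysate means with 28, so false calls could exceed the nominal share. Named genes were the 4 members, the 5 other genes with the highest Pearson's r to each, and, per list, up to 3 called genes with the largest late-minus-early change in each direction, all at a mean of at least 5 scaled TPM. Bcl2, Hes6, Neurog1, Mki67, Top2a, Kit, Ezh2, S100a9, Bpifb9b, Bpifb5, Lyz2, Cyp2a5, Omp, Fabp7 and Sox10 fall outside this rule and were named after their values were seen. The members and lists were chosen with earlier results of these data known. Early and late libraries of a lysate share a name in the labels, and their deviations from group means correlated at 0.086 in WT and 0.050 in cKO.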

Additional observations from a re-analysis of the deposited data

How the results depend on the processing

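The genotype differences kept their sign under each alternative run, many of which cannot move the estimate and change only its error. Over those alternatives Mex3b ranged from 0.41 to 0.51 in early and 0.69 to 0.83 in late polysomes, Mex3c from 0.50 to 0.69 and 0.30 to 0.37, and Mex3d from 0.13 to 0.28 and 0.33 to 0.61. The cause of the changes that follow was not tested. With only the 4 libraries of the fraction, Mex3a in early polysomes was at -2.55 (adjusted p = 0.0843 by limma). On lysate means Mex3a was at -2.67 with no filter (adjusted p = 0.165) and without the trend (0.0654). Late against early in cKO, Mex3a was at -0.51 with no filter (0.0588), without the trend (0.0583) and with 4 libraries (0.0951), and -0.40 as deposited. With TPM as deposited the average shift was -0.28 for Mex3a, -0.11 for Mex3b and -0.21 for Mex3d, and Mex3b was at -0.26 in WT and 0.047 in cKO. With whole reads Mex3b was at 0.77 in late polysomes and 0.60 on lysate sums, and Mex3c at 0.54. An alternative chosen after seeing the data used whole reads without WT early library 2 (lysate sums without its lysate). It gave 0.77 for Mex3b in late polysomes, 0.59 for Mex3b and 0.58 for Mex3c on lysate sums, -0.35 for Mex3b and -0.40 for Mex3d late against early in WT, and -0.22 for Mex3b on average. It called 16 genes in late polysomes, 106 on lysate sums and 0 for the interaction (558 at an unadjusted p under 0.05 by limma).

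The replicate numbers of WT and cKO share no stated animal or batch. Their deviations correlated at 0.33 in early and 0.14 in late polysomes. With the replicate number as a block, lysate means gave 0.61 for Mex3b (adjusted p = 0.0328 by limma), 0.46 for Mex3c (0.0356) and 0.34 for Mex3d (0.0735), and 85 genes passed against 1. Pairing by lysate changed no call of the average shift for the 4 genes.

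Genes past the threshold in early polysomes numbered 7, against 11 with no filter, 4 with a TPM filter of 5, 12 with whole reads and 0 with 4 libraries (1043 at an unadjusted p under 0.05). In late polysomes they numbered 2, against 1 with a pseudocount of 0.1, 4 with no filter, 1 with a TPM filter of 5, 5 without the trend, 1 with 4 libraries and 15 with whole reads. For the interaction they numbered 1, against 6 with no filter, 2 without the trend, and by limma 0 with a TPM filter of 5 (324 at an unadjusted p under 0.05) and 0 with whole reads (396). On lysate means they numbered 1, against 58 with whole reads and by limma 0 with no filter (2115 at an unadjusted p under 0.05) and 0 without the trend (1673).

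Leaving out each library in turn, with a lone library assumed to vary like the other groups, gave 0 to 9 genes in early, 0 to 13 in late, 1 to 7 for the interaction, 1 to 10 on lysate means and 5874 to 8968 late against early in WT. Mex3a ranged from -2.81 to -2.30 in early, -2.92 to -2.67 in late, -0.77 to -0.26 late against early in cKO, -0.52 to -0.27 on average and -0.50 to 0.017 for the interaction. Mex3b ranged from -0.44 to -0.30 in WT and -0.26 to -0.19 on average, Mex3d from -0.54 to -0.38 in WT, and Mex3d minus Mex3a from -0.083 to 0.18. With 2 libraries a group, small genotype differences are at the limit of what these data can call.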
